A study of Mus musculus with 7 samples.

Results

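The 10 genes described here, Atf4, Ddit3, Xbp1, Trib3, Hspa5, Hsp90b1, Calr, Canx, Pdia4 and Herpud1, belong to the unfolded protein response of the endoplasmic reticulum (ER). They were taken by symbol from a table of 55367 genes, all 10 were found, and their levels were compared between RNA-seq libraries labelled CRS (n = 4) and libraries labelled noCRS (n = 3). All libraries were labelled as projection neurons running from the medial prefrontal cortex (mPFC) to the lateral habenula (LHB), from brains of C57BL/6J mice labelled P90, and the series title places them in a study of chronic stress and depression. The groups share strain and age label and differ in the treatment label alone; the label CRS is not spelled out, and genotype, virus, sex and the number of animals per library are not given in the sources used here. Nothing in the labels says that each library came from its own animal, so every p-value below rests on the spread among these libraries alone, and that spread may be technical.

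The unfolded protein response is the programme by which a cell matches the folding capacity of its ER to the load of new proteins. Sensors in the ER membrane act through ATF6, through the nuclease IRE1, which splices Xbp1 mRNA, and through the kinase PERK, which slows translation and lets ATF4 protein accumulate. ATF6 and spliced XBP1 induce ER chaperones and degradation factors, while ATF4 induces amino acid genes, the factor CHOP (encoded by Ddit3) and the pseudokinase TRIB3. In neurons and in myelinating glia the same chaperones also serve a steady traffic of secreted and membrane proteins.

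Promoter sequences of these genes are shown because the ER stress response element (ERSE), the site bound by ATF6 together with the factor NF-Y, is the feature that most of the chaperone genes share. The motif, CCAAT and CCACG with 9 bases of any kind between them, was searched on both strands of the 300 bases from 250 before to 50 after each RefSeq gene start (GRCm38.p6), and all 10 genes had an entry. It was present in the promoters of Hspa5, Hsp90b1, Calr and Canx (4 of 10 genes), against 39 of 32851 promoter entries of all genes (0.119%). Hsp90b1 carried 2 matches. The Hspa5 match lies before the RefSeq start but inside the gene as counted here, which starts at position 34771970. In the following stretches, each 5′ to 3′ on the strand of the gene, capitals mark the match; in the second Hsp90b1 stretch and in Calr it lies on the other strand.
Hspa5 (chr2:34772000-34772068, plus strand): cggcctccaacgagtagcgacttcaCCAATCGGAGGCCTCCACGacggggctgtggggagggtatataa
Hsp90b1, distal (chr10:86705613-86705681, minus strand): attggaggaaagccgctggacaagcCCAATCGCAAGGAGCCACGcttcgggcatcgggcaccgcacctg
Hsp90b1, proximal (chr10:86705508-86705576, minus strand): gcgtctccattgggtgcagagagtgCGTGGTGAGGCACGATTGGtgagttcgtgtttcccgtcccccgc
Calr (chr8:84847050-84847118, minus strand): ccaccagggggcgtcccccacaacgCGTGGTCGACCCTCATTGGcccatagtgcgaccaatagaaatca
Canx (chr11:50325775-50325843, minus strand): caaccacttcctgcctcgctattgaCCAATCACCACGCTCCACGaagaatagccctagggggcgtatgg

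Herpud1 carried the shorter variant ERSE-II (ATTGG and CCACG with 1 base of any kind between them, both strands searched), found in 12 of 32851 entries (0.0365%), and a match to the C/EBP-ATF response element bound by ATF4 (CARE; TGATGNAAN, both strands searched), found in 3.95% of entries. The CARE match lies on the other strand, upstream of ERSE-II, and both are in capitals. Every ERSE or ERSE-II match contains a CCAAT box on 1 of its strands, so these motifs overlap that one.
Herpud1 (chr8:94386291-94386412, plus strand): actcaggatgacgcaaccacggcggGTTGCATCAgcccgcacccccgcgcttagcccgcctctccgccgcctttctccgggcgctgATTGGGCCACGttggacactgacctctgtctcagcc

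Trib3 held a CARE match just after its start, and the motif UPRE (TGACGTGG, both strands searched; 0.676% of entries) was found in none of the 10 windows. In Atf4, Ddit3, Xbp1 and Pdia4 neither ERSE, ERSE-II nor CARE was found; Atf4, Ddit3 and Pdia4 held the bare CCAAT box, as did 37.4% of all entries. A match is a description of the letters. Only exact matches were searched, so absence says nothing of inexact copies in this window or of other parts of the gene.

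For Xbp1 the sequence of interest is in the transcript. IRE1 cuts Xbp1 mRNA at a pair of CNGCNGC motifs and removes 26 bases, which shifts the reading frame and yields the active factor. In transcript Xbp1-201 of GENCODE M21 the pair lies in exon 4 of 5 (coding), with the removed bases, shown in capitals, at chr11:5524282-5524307 on the plus strand of GRCm38.
Xbp1 (chr11:5524262-5524327, plus strand): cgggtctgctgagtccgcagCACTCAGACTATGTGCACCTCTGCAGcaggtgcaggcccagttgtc

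Counts per gene do not separate spliced from unspliced Xbp1, and RNA levels do not report ATF4 protein or ATF6 cleavage, so what follows concerns transcript levels only.

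Before the comparison, some facts of the libraries bear on it. Totals ran from 28677703 to 39965667 counts, and mitochondrial transcripts took 0.633% to 0.759% of them. Genes detected ran from 16938 in CRS replicate 2 to 23399 in CRS replicate 4. Correlations between libraries of a group ran from 0.766 to 0.872 in CRS and from 0.786 to 0.822 in noCRS. CRS replicate 2 stood apart on the first principal component (30.4% of the variance). The labelled cell type was not matched by its markers in the noCRS libraries. The 8 excitatory neuron markers summed to 507 to 744 CPM in CRS (counts-per-million units after scaling by the trimmed mean of M-values, TMM), against 14.9 to 26.4 CPM in noCRS, and Slc17a6 was at 0 in every noCRS library. Of these 8 markers 4 rose in CRS and 0 fell. Oligodendrocyte precursor markers summed to 999 to 1407 CPM in CRS and 1792 to 2127 CPM in noCRS. Astrocyte markers summed to 6342 to 12937 CPM in CRS and 10772 to 14032 CPM in noCRS. In bulk libraries fewer cells of a type and less RNA per cell cannot be told apart.

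Of the 10 genes, the 9 that could be tested did not pass the test between CRS and noCRS. Among all tested genes 2.30% passed, so 0 of 9 is near that share. In the quasi-likelihood test of edgeR, adjusted by the Benjamini-Hochberg method over 17833 genes, 0 of the 9 tested genes had an adjusted p below 0.05 (410 genes did in all, 90% of them higher in CRS, and 79.5% of the calls under scaling by library totals only). With no adjustment, 0 of the 9 were below 0.05 in edgeR, against 13.6% of all tested genes (9.67% higher and 3.91% lower in CRS), and DESeq2 and limma-voom each called 0 of the 9 after adjustment, against 9.14% and 3.58%. For none of the 9 did the 4 CRS libraries lie wholly above or wholly below the 3 noCRS libraries. The share over all tested genes was 16.9% (10.1% above and 6.74% below). With so few genes, a count of 0 beside any of these shares does not set the 9 apart from other genes. Summed over the 10 genes, the level was 3710, 3691, 3794 and 3076 CPM in CRS replicates 1 to 4, against 3509, 3385 and 3979 CPM in noCRS replicates 1 to 3, again overlapping. Log2 fold changes (CRS over noCRS) ran from -0.48 for Pdia4 to 0.57 for Ddit3, with a median of 0.21, beside -0.02 for all tested genes. This median was 0.10 without noCRS replicate 2, 0.13 without CRS replicate 4 and 0.14 without CRS replicate 1. Under scaling by library totals it was 0.06, beside -0.17 for all tested genes. The factors Atf4, Ddit3 and Xbp1, the membrane lectin Canx and Herpud1 had positive values, and the lumenal proteins Hspa5, Hsp90b1, Calr and Pdia4 had negative ones. These signs describe differences that did not pass the test, and that of Hsp90b1 turned without noCRS replicate 3 (log2 fold change 0.03).

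**Figure D1:**
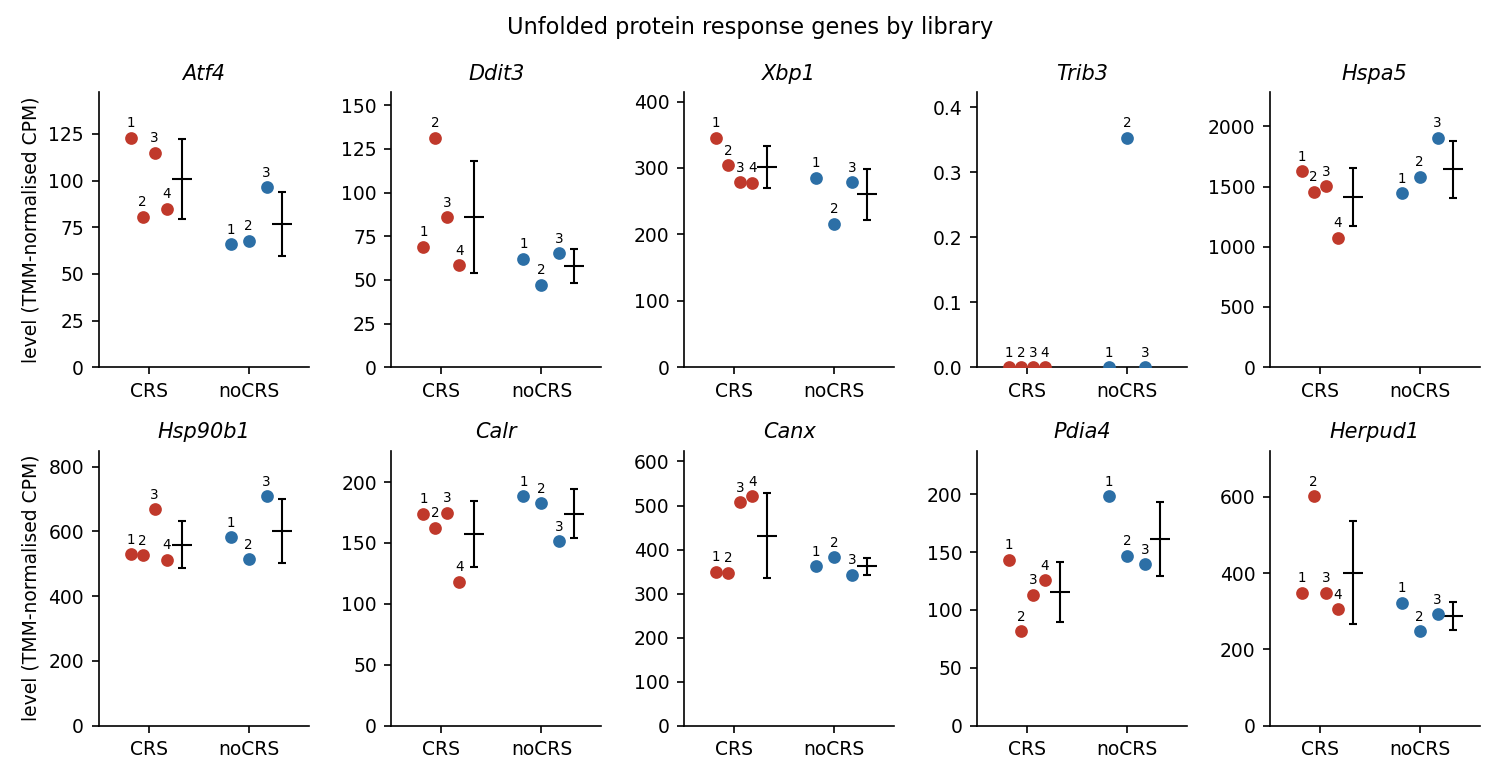
Level of each of the 10 genes in every library, in TMM-normalised CPM, with a separate linear axis from 0 for each gene. Points are libraries with their replicate numbers (CRS in red, noCRS in blue) and bars are the mean and SD of each group, left out for Trib3, which had counts in noCRS replicate 2 alone; the groups overlap for every gene.

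Most of the 10 genes were abundant. Per kilobase of exon, Hspa5 averaged 358 CPM over the 7 libraries and ranked 102 of the 17833 tested genes. Herpud1 (151 CPM per kilobase) and Hsp90b1 (143) followed, then Xbp1 (87.4), Canx (85.6), Calr (57.1), Pdia4 (56.5), Ddit3 (43.3) and Atf4 (38.4). All 9 stood above at least 90.7% of tested genes. Hspa5 was above the next gene in 7 of 7 libraries, Hsp90b1 above Xbp1 in 7 of 7, and Canx above Calr in 7 of 7. Other neighbours in this order were not separated: Herpud1 was above Hsp90b1 in 3 of 4 CRS and 0 of 3 noCRS libraries, Xbp1 above Canx in 4 of 7, Calr above Pdia4 in 4 of 7, Pdia4 above Ddit3 in 5 of 7 and Ddit3 above Atf4 in 3 of 7. Trib3 was the exception to this abundance, as given below.

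Among the transcription factors, Ddit3 varied most between CRS libraries. It encodes CHOP, a factor that promotes cell death under lasting ER stress (chromosome 10, 127290774 to 127296288, plus strand). Ddit3 measured 69.1, 131, 86.0 and 58.2 CPM in CRS replicates 1 to 4, against 62.1, 47.1 and 65.3 CPM in noCRS replicates 1 to 3. The highest library was CRS replicate 2, and CRS replicate 4 lay below noCRS replicates 1 and 3. The fold was 1.48 (95% interval 0.917 to 2.39; edgeR adjusted p = 0.501). Without CRS replicate 2 the log2 fold change of Ddit3 was 0.27, against 0.57 with it, and that of Atf4 was 0.47. Ddit3 had a coefficient of variation of 37.4% in CRS and 16.7% in noCRS, and Atf4 21.0% in CRS and 22.4% in noCRS. Exons of Mars1 and Gm4189 on the other strand cover 4.73% of the exon length of Ddit3, and the library kit does not mark strand.

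Atf4, whose protein is controlled mainly through translation (chromosome 15, 80255184 to 80257541, plus strand), measured 123, 80.6, 115 and 85.0 CPM in CRS, against 65.9, 67.8 and 96.5 CPM in noCRS. CRS replicates 1 and 3 were above every noCRS library, and CRS replicates 2 and 4 lay between noCRS replicates 2 and 3. The group means were 101 ± 21.2 CPM in CRS (SD, n = 4) and 76.7 ± 17.2 CPM in noCRS (SD, n = 3), a fold of 1.31 (95% interval 0.903 to 1.91; edgeR adjusted p = 0.579). Xbp1 (chromosome 11, 5520659 to 5525893, plus strand) measured 345, 304, 279 and 278 CPM in CRS, against 286, 216 and 279 CPM in noCRS. CRS replicate 1 was the highest library for Xbp1 and noCRS replicate 2 the lowest, with the others from 278 to 304 CPM. The Xbp1 fold was 1.16 (95% interval 0.896 to 1.499, edgeR adjusted p = 0.710).

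Trib3, a pseudokinase induced by ATF4 and CHOP (chromosome 2, 152337422 to 152344032, minus strand), was not detected in most libraries. It had 0 counts in all 4 CRS libraries and in noCRS replicates 1 and 3, and 11 counts (0.353 CPM) in noCRS replicate 2. A count of 0 allows up to 3 counts, or 0.0782 to 0.0990 CPM in the CRS libraries, for counting error alone. Trib3 did not pass the expression filter and was not tested.

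The chaperones of the ER lumen were no higher in mean level in CRS than in noCRS. Hspa5 encodes BiP, the ER member of the Hsp70 family and the best known target of ATF6 (chromosome 2, 34771970 to 34777547, plus strand). Hspa5 measured 1628, 1456, 1500.3 and 1073.5 CPM in CRS, against 1443, 1581 and 1904 CPM in noCRS. CRS replicate 4 was the lowest library and noCRS replicate 3 the highest, and the others overlapped. The means were 1415 ± 239 CPM in CRS (SD, n = 4) and 1642 ± 237 CPM in noCRS (SD, n = 3), a fold of 0.861 (95% interval 0.647 to 1.15; edgeR adjusted p = 0.755).

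Hsp90b1, which encodes GRP94, the Hsp90 of the ER (chromosome 10, 86690209 to 86705509, minus strand), measured 529, 527, 669.6 and 512 CPM in CRS, against 583, 514 and 709 CPM in noCRS. CRS replicate 3 was well above the other CRS libraries but below noCRS replicate 3. The fold was 0.930 (95% interval 0.712 to 1.21; edgeR adjusted p = 0.895). Its counts are uncertain because 15.7% of its exon length is shared with 1810014B01Rik on the other strand and with Gm15344 and Gm25745.

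The lectin chaperones hold newly made glycoproteins during folding, calreticulin (Calr) in the lumen and calnexin (Canx) in the membrane. Calr (chromosome 8, 84841850 to 84846934, minus strand) measured 174, 162, 175 and 118 CPM in CRS, against 188, 183 and 151 CPM in noCRS. CRS replicate 4 was the lowest, and the fold was 0.904 (95% interval 0.674 to 1.21; edgeR adjusted p = 0.862). Canx (chromosome 11, 50293961 to 50325673, minus strand) measured 349, 347, 508 and 521 CPM in CRS, against 362, 382 and 343 CPM in noCRS. CRS replicates 3 and 4 stood above the noCRS libraries and CRS replicates 1 and 2 among them, so the spread was 96.1 CPM in CRS and 19.6 CPM in noCRS (SD). The Canx fold was 1.19 (95% interval 0.877 to 1.62; edgeR adjusted p = 0.714).

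Pdia4, a protein disulfide isomerase that forms and rearranges disulfide bonds (chromosome 6, 47796141 to 47813430, minus strand), had the smallest p of the 10 genes. It measured 143, 81.8, 113 and 126 CPM in CRS, against 198, 147 and 139.7 CPM in noCRS. Only CRS replicate 1 lay above a noCRS library, noCRS replicate 3. The means were 116 ± 25.9 CPM in CRS (SD, n = 4) and 162 ± 31.9 CPM in noCRS (SD, n = 3), a fold of 0.718 (95% interval 0.4999 to 1.03; edgeR adjusted p = 0.422). Herpud1, a membrane protein of ER-associated degradation (chromosome 8, 94386438 to 94395377, plus strand), measured 348, 601, 348 and 305 CPM in CRS, against 322, 248 and 293 CPM in noCRS. CRS replicate 2 was far above every other library, and CRS replicate 4 lay below noCRS replicate 1. Its fold was 1.39 (95% interval 0.936 to 2.08; edgeR adjusted p = 0.487), and without CRS replicate 2 its log2 fold change was 0.20, against 0.48 with it.

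**Figure D2:**
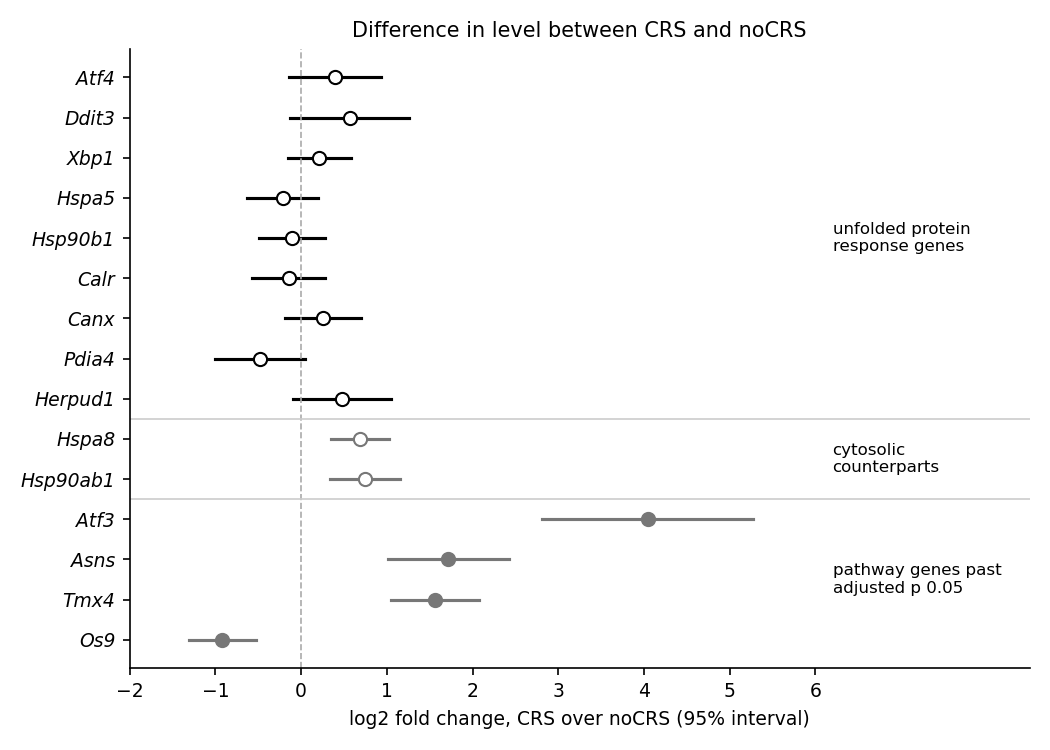
Log2 fold change, CRS over noCRS, with its 95% interval for the 9 tested response genes, the cytosolic counterparts Hspa8 and Hsp90ab1, and the 4 pathway genes past an edgeR adjusted p of 0.05 (filled points). Every interval of the 9 response genes includes 0, with upper ends from 0.04 (Pdia4) to 1.26 (Ddit3).

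The intervals set what these bulk libraries can say of size, and they do not bound a change within any cell type. Pan-neuronal markers summed to 2921 to 4128 CPM in CRS and 357 to 433 CPM in noCRS. Their part in these intervals was not tested. For Hspa5, Hsp90b1, Calr and Xbp1 the upper ends were folds of 1.15, 1.21, 1.21 and 1.499, so larger rises lay outside their 95% intervals. For Ddit3 and Herpud1 the upper ends were folds of 2.39 and 2.08, and for Pdia4 the lower end was 0.4999. A p that misses the threshold does not show that the groups had equal levels. Single libraries moved several of these estimates by over 1.5 times. The log2 fold change of Atf4 was 0.60 without noCRS replicate 3. That of Xbp1 was 0.14 without CRS replicate 1 and 0.10 without noCRS replicate 2, and that of Hspa5 -0.13 without CRS replicate 4 and -0.09 without noCRS replicate 3. Canx was at 0.13 without CRS replicate 4 and 0.14 without CRS replicate 3, and Calr at -0.22 without CRS replicate 3, -0.05 without CRS replicate 4, -0.07 without noCRS replicate 1 and -0.24 without noCRS replicate 3. Pdia4 was at -0.29 without noCRS replicate 1.

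The ER chaperones Hspa5 and Hsp90b1 were then each set against a cytosolic relative within the same library, which needs no scaling between libraries. Hspa8 encodes the constitutive cytosolic Hsp70. Hspa8 measured 3741, 3731, 3305 and 2918 CPM in CRS, against 2257, 1943 and 2187 CPM in noCRS. The groups did not overlap, but the edgeR adjusted p was 0.0549 (log2 fold change 0.69 ± 0.15 SE). The log2 ratio of Hspa5 to Hspa8 was -1.20, -1.36, -1.14 and -1.44 in CRS, against -0.65, -0.30 and -0.20 in noCRS. Every CRS ratio was below every noCRS ratio, a difference of -0.90 in mean log2 ratio. The exact two-sided permutation test over the 35 assignments of libraries gave p = 0.0286, the smallest it can give here. Adjusted over the 4 ratios tested, this permutation p became 0.114, which misses the threshold. Full separation in this ratio alone could not have passed that adjustment, so the miss decides nothing about the difference.

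Hsp90ab1 encodes the constitutive cytosolic Hsp90 and measured 1502, 1213, 1041 and 994 CPM in CRS, against 685, 669 and 767 CPM in noCRS (log2 fold change 0.75 ± 0.18 SE; adjusted p = 0.0774 in edgeR). The log2 ratio of Hsp90b1 to Hsp90ab1 was -1.50, -1.20, -0.64 and -0.96 in CRS, against -0.23, -0.38 and -0.12 in noCRS. Every CRS ratio was again below every noCRS ratio. The difference was -0.83 (exact permutation p = 0.0571, adjusted p = 0.114 over the 4 ratios). The difference had the same sign for both pairs. After adjustment neither passed, but even both at the smallest p could not have passed without a further ratio there. All 5 cytosolic Hsp70 and Hsp90 genes tested had positive fold changes, with 0 called by edgeR after adjustment, 4 before it, and 3 each by DESeq2 and limma-voom. Pan-neuronal markers summed to 2921 to 4128 CPM in CRS and 357 to 433 CPM in noCRS beside these ratios, and their part in them was not tested.

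Between pairs of ER stress genes the ratios overlapped. Ddit3 to Atf4, CHOP to its inducer, had log2 ratios of -0.83, 0.70, -0.42 and -0.54 in CRS, against -0.08, -0.52 and -0.56 in noCRS. CRS replicate 2 alone was above 0, and the difference was 0.12 (exact permutation p = 0.886, adjusted p = 0.886), or -0.21 without that library. Calr to Canx had log2 ratios of -1.01, -1.10, -1.54 and -2.14 in CRS, against -0.94, -1.06 and -1.18 in noCRS, with a difference of -0.38 (exact permutation p = 0.314, adjusted p = 0.419). CRS replicate 4 was the lowest for this pair.

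**Figure D3:**
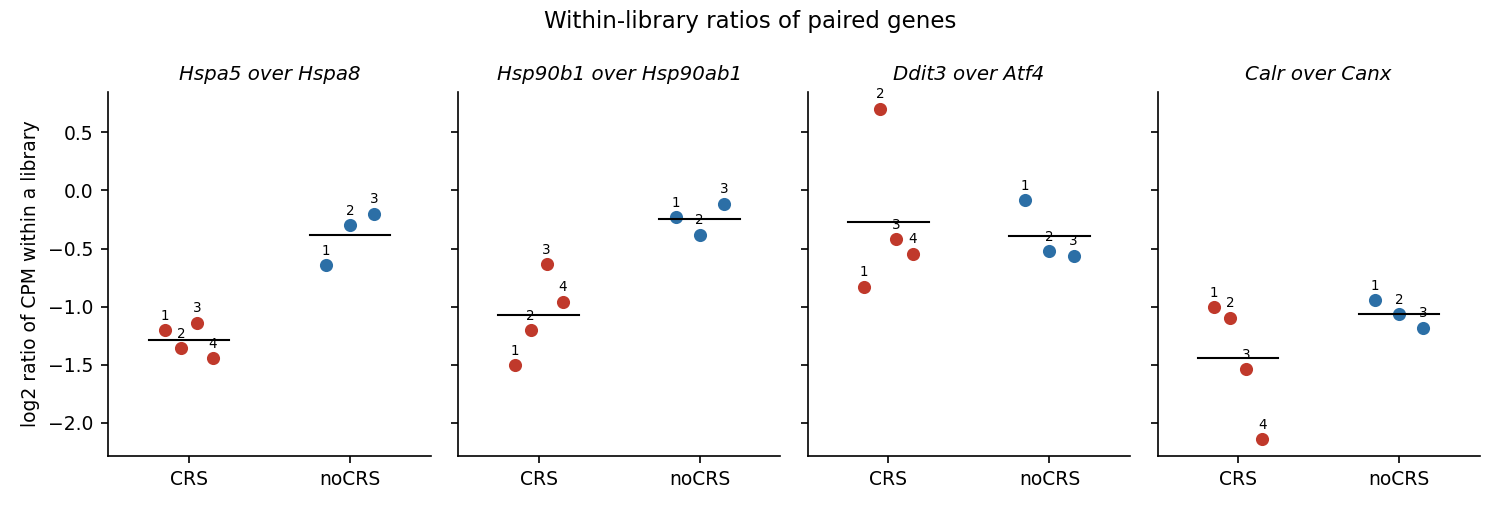
Log2 ratio of CPM of paired genes within each library, with CRS in red, noCRS in blue, replicate numbers above the points and lines at the group means. For Hspa5 over Hspa8 and Hsp90b1 over Hsp90ab1 all 4 CRS libraries sit below the 3 noCRS libraries, with mean differences of -0.90 and -0.83, while the other pairs overlap.

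The rest of the pathway was read from 7 lists holding 119 genes, of which 117 were tested. Over all lists 53 fold changes were positive and 64 negative. By the test 3 genes rose (Atf3, Asns and Tmx4) and 1 fell (Os9), beside 2.07% of all tested genes called higher and 0.230% called lower. List medians below stand beside -0.02 for all tested genes. Means of these genes are given with the SD over 4 CRS and 3 noCRS libraries.

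Among 25 tested targets of ATF4 and CHOP, 2 rose and 0 fell, 14 fold changes were positive, and the median on the log2 scale was 0.27 (0.16 without CRS replicate 1). Atf3, a stress-induced factor that immediate early signalling also induces, rose to 123, 81.0, 114 and 65.9 CPM in CRS, against 3.04, 10.8 and 3.70 CPM in noCRS (log2 fold change 4.04 ± 0.54 SE, edgeR adjusted p = 0.00972). Asns, which makes asparagine and is a classic ATF4 target, rose to 164, 125, 128 and 178 CPM in CRS, against 43.6, 27.4 and 64.6 CPM in noCRS (log2 fold change 1.72 ± 0.31 SE; adjusted p = 0.0303 in edgeR). The Asns call was lost without CRS replicate 1, 3 or 4 or noCRS replicate 1 or 2 (adjusted p up to 0.120) and with total-count scaling (adjusted p = 0.0506). Slc3a2, the most abundant of the list per length and a chain of amino acid transporters, measured 625 ± 70.6 CPM in CRS (SD, n = 4) and 508 ± 54.2 CPM in noCRS (SD, n = 3), with an edgeR adjusted p of 0.463. Beside these 2 targets, Ddit3 and Atf4 themselves did not pass, and Trib3 was not tested. Pan-neuronal markers moved with Atf3 and Asns, with 4 of 7 risen and 0 fallen, and their part in these results was not tested.

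Of 15 tested sensors and regulators of eIF2α phosphorylation, edgeR called 0 after adjustment and 1 before it (p below 0.05), DESeq2 called 1 and limma-voom 0. That gene was Eif2s1, which encodes eIF2α, the substrate of PERK, at 156 ± 21.3 CPM in CRS (SD, n = 4) and 104 ± 7.01 CPM in noCRS (SD, n = 3; edgeR adjusted p = 0.145), with no overlap of the groups. Ppp1r15a, the phosphatase subunit that reverses the phosphorylation and the most abundant of the list per length, measured 478 ± 91.6 CPM in CRS and 420 ± 97.1 CPM in noCRS (edgeR adjusted p = 0.844). Of the sensors themselves, named here after their values were seen, Eif2ak3 (PERK) measured 16.7 ± 2.67 CPM in CRS and 29.01 ± 8.39 CPM in noCRS (no overlap of the groups, edgeR adjusted p = 0.378), Atf6 15.7 ± 10.3 CPM in CRS and 8.29 ± 6.43 CPM in noCRS (edgeR adjusted p = 0.786), and Ern1 (IRE1) 1.51 ± 1.56 CPM in CRS and 0.718 ± 1.13 CPM in noCRS (edgeR adjusted p = 0.912).

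The fold change was negative for 9 of the 12 tested cochaperones of the ER Hsp70 and secreted ER stress factors, and the median on the log2 scale was -0.35 (8 to 10 of 12 negative with any single library left out or under the other scalings; median -0.23 without noCRS replicate 3). edgeR called 0, with 4 at an unadjusted p below 0.05, all lower in CRS, while DESeq2 called 2 and limma-voom 1, all lower. The gene of smallest p was Sdf2l1, a partner of BiP, at 57.0, 71.5, 49.4 and 50.4 CPM in CRS, against 101, 91.7 and 106 CPM in noCRS. Its groups did not overlap (log2 fold change -0.80 ± 0.20 SE; adjusted p = 0.0872 in edgeR). The other 3, named here after their values were seen, were Dnajc1, Manf and Creld2, with log2 fold changes of -0.87, -0.53 and -0.57 (edgeR adjusted p = 0.141, 0.278 and 0.324). Dnajb9, an ER J-protein induced by XBP1 and the most abundant of the list per length, measured 448 ± 126 CPM in CRS and 317 ± 68.8 CPM in noCRS (edgeR adjusted p = 0.484). Oligodendrocyte precursor markers were lower in the same direction, with 3 of 6 fallen (Cspg4, C1ql1 and Gpr17) and 0 risen, and their part in these values was not tested.

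Of 15 disulfide isomerases and oxidases 1 rose and 0 fell, with a median log2 fold change of -0.08. That median depended on single libraries, from -0.15 without CRS replicate 3 to 0.004 without noCRS replicate 3. Tmx4, a membrane-bound relative of the thioredoxins, rose to 140.4, 163, 190.3 and 200.2 CPM in CRS, against 64.7, 68.0 and 43.8 CPM in noCRS (log2 fold change 1.56 ± 0.22 SE, edgeR adjusted p = 0.0127). Pdia3, the isomerase that works with Calr and Canx and the most abundant of the list per length, measured 989 ± 109 CPM in CRS and 1117 ± 103 CPM in noCRS (edgeR adjusted p = 0.746). Of 21 ER-associated degradation genes 1 fell and 0 rose. Before adjustment 3 were higher and 3 lower at p below 0.05, and DESeq2 called 2 higher and 1 lower. The median log2 fold change was -0.09, and it ran from -0.31 without CRS replicate 2 to -0.01 without CRS replicate 1. Os9, a lectin that delivers misfolded glycoproteins to the degradation complex, fell to 87.7, 66.2, 68.6 and 84.3 CPM in CRS, against 147, 141 and 147 CPM in noCRS (log2 fold change -0.92 ± 0.17 SE; adjusted p = 0.0337 in edgeR). The groups did not overlap, but the Os9 call was lost whichever library was left out (adjusted p from 0.0555 to 0.132) and with no filter on low counts (adjusted p = 0.0502). On the higher side, named here after their values were seen, the ubiquitin-conjugating enzyme Ube2j1 measured 81.5, 138, 87.4 and 143 CPM in CRS, against 42.4, 57.5 and 51.7 CPM in noCRS. Its groups did not overlap (log2 fold change 1.16 ± 0.27 SE; adjusted p = 0.0711 in edgeR and 0.00169 in DESeq2). Ufd1, a cofactor of the extracting ATPase Vcp, measured 237 ± 16.1 CPM in CRS and 176 ± 14.9 CPM in noCRS (adjusted p = 0.199 in edgeR and 0.0244 in DESeq2). Selenos, a selenoprotein of the same complex and the most abundant of the list per length, measured 376 ± 105 CPM in CRS and 413 ± 49.4 CPM in noCRS (edgeR adjusted p = 0.902).

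Glycoprotein folding and calcium-binding genes had a median log2 fold change of -0.33 over 11 tested, with 0 called by edgeR after adjustment and 1 before it, 0 by DESeq2 and 1 by limma-voom. The median was -0.05 without noCRS replicate 1 and -0.13 without CRS replicate 3. The gene called by limma-voom was Rcn1, a calcium-binding protein of the lumen, at 83.5 ± 21.8 CPM in CRS and 128 ± 9.26 CPM in noCRS (edgeR adjusted p = 0.233). Its relative Rcn2, the most abundant of the list per length, measured 421 ± 71.5 CPM in CRS and 418 ± 45.8 CPM in noCRS (edgeR adjusted p = 0.994). Translocon and COPII vesicle genes had a median of 0.09 over 18 tested, with 0 called by edgeR after adjustment and 2 before it, while DESeq2 called 1 and limma-voom 0. The median was 0.18 without CRS replicate 1, 0.02 without CRS replicate 4 and -0.02 without CRS replicate 2. Under scaling by library totals it was -0.08, beside -0.17 for all tested genes. Their gene of smallest p was Srp9, of the signal recognition particle, at 169 ± 30.1 CPM in CRS and 107 ± 20.2 CPM in noCRS (edgeR adjusted p = 0.173). Sar1b, a GTPase that starts COPII coats and the most abundant of the list per length, measured 318 ± 93.4 CPM in CRS and 273 ± 35.4 CPM in noCRS (edgeR adjusted p = 0.822). Without CRS replicate 2 the Sar1b fold change turned to -0.03 on the log2 scale.

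The promoter motif gave a set of genes chosen by sequence, in part the same genes as above. Creld2, Derl3, Dnajb11, Dnajc3, Pdia6 and Syvn1 are also on the pathway lists, all with negative fold changes. They remain among the 24 genes given below. Over all RefSeq promoters, 49 genes carried ERSE or ERSE-II, and 29 of them were tested, 5 of which are among the 10 genes. Of the 29, edgeR called 0 after adjustment and 3 before it, all lower in CRS, while DESeq2 called 1 and limma-voom 0. A negative fold change was seen for 21 of the 29, beside 5676 of the 11612 tested genes with a promoter entry. The median on the log2 scale was -0.22, beside 0.02 for those 11612. Among the 29 are the similarly named Xlr3a, Xlr3b and Xlr3c, all negative. Some are of low level, such as Calr4 and Xlr3c (means of 0.358 and 0.174 CPM in CRS). With the 10 genes left out, 18 of 24 were negative and the median was -0.30, which was -0.49 without noCRS replicate 1, -0.47 with limma-voom and -0.21 without noCRS replicate 3. With any single library left out, 18 to 23 values were negative (of 29 tested, or of 27 without CRS replicate 4), and without noCRS replicate 3 the median was -0.11. The 3 genes called by edgeR before adjustment were Nucb1, Krtcap2 and Creld2. Nucb1, a calcium-binding protein of the Golgi, measured 70.7 ± 13.0 CPM in CRS and 136 ± 19.9 CPM in noCRS (edgeR adjusted p = 0.0585). Krtcap2, a subunit of the oligosaccharyltransferase complex, measured 54.1 ± 7.09 CPM in CRS and 80.0 ± 17.2 CPM in noCRS (edgeR adjusted p = 0.286). Genes with a CARE match (303 tested) had a median of 0.10, with 13 called higher and 1 lower (4.62% in all), beside 266 higher and 33 lower (2.57%) of the 11612 genes with a promoter entry. These 14 calls were 46 with DESeq2, 21 with limma-voom and 0 with the replicate block. Without CRS replicates 1, 3 and 4 in turn there were 5, 5 and 4 calls, and without noCRS replicate 2 or 3 there were 6. The CARE median was 0.01 without CRS replicate 3, beside -0.05 for all tested genes. Under scaling by library totals it was -0.06, beside -0.17 for all tested genes. The motif sets were formed after values of the 10 genes were seen.

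**Figure D4:**
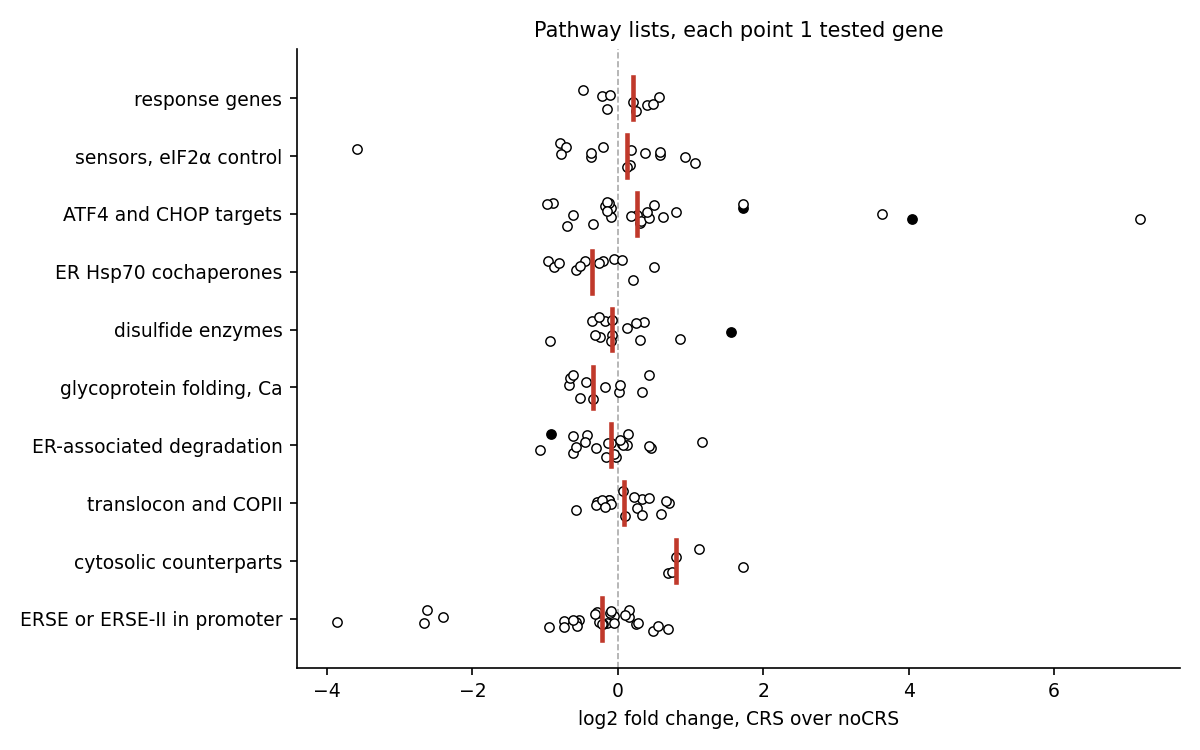
Log2 fold change, CRS over noCRS, of every tested gene in the 10 response genes, the 7 pathway lists, 5 cytosolic Hsp70 and Hsp90 genes and the genes with an ERSE or ERSE-II match; filled points passed an edgeR adjusted p of 0.05 and red lines are medians. The median of the cytosolic genes (0.80) lies right of 0, and those of the ER Hsp70 cochaperones (-0.35) and of the genes with the promoter motif (-0.22) lie left of it.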

How the data were processed

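A micro kit served for RNA extraction and a transposase kit, which does not mark strand, for the libraries, per the labels' protocols. The authors deposited raw counts per gene as whole numbers; HISAT2, featureCounts and DESeq2 are among the tools, and GRCm38 is the build, per the submitters' processing notes, which give no tool versions. The column names have the form of another aligner's default output, so the aligner was not settled, and neither the handling of reads that align to several places nor the way neurons were isolated is stated in the labels. All 10 genes had the same start and end in the table as in GENCODE M21.

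The counts went into the quasi-likelihood test of edgeR 4.0.16 (R 4.3.3), CRS over noCRS without covariates, after TMM scaling and the default filter on low counts. The Benjamini-Hochberg method adjusted p-values over 17833 genes, with a threshold of 0.05. CPM are TMM-normalised. Standard errors were taken from the F statistic. Ratios used log2 CPM with a prior count of 2. DESeq2 1.42.0 and limma-voom (limma 3.58.1) were alternatives, with other scalings, filters and left-out libraries. Scripts were tested on simulated data. The smallest chi-square per gene between any pair of libraries was 93.6, so no library was a duplicate.

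The members, lists, tests and named genes were chosen with earlier results of these data known. In each pathway list the text names genes past the threshold, or else that of smallest p, and the most abundant per kilobase of exon; other genes named were chosen after their values were seen. Intervals of counts cover counting error only.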

Additional observations from a re-analysis of the deposited data

Results flagged for a closer look

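In the CRS group of 4 libraries, Dixon's test at its 95% critical value was applied to 31 genes and ratios, and 3 had a library far from the others; chance marks about 1 in 20 groups. Herpud1 measured 601 CPM in CRS replicate 2, against 305 to 348 CPM in the other CRS libraries. Sar1b measured 458 CPM in the same library, against 266 to 277 CPM in the other CRS libraries. Hsp90b1 measured 669.6 CPM in CRS replicate 3, against 512 to 529 CPM in the other CRS libraries.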

How the results depend on the processing

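None of the 9 tested genes passed the threshold under any of the 17 alternatives, and their lowest adjusted p was 0.238 (Pdia4, DESeq2). Hsp90b1 alone of the 9 changed sign, without noCRS replicate 3 (0.031), and its log2 fold changes ran from -0.22 to 0.031 with single libraries left out. The total-count scaling moved the median of all genes by -0.16. The number of all genes called (410, with 369 higher and 41 lower) was 1631 with DESeq2 (1221 higher, 410 lower), 639 with limma-voom (117 lower) and 714 at a threshold of 0.10 (602 higher, 112 lower); 64 genes were lower with total-count scaling. With single libraries left out it ran from 142 to 352 (138 to 313 higher, 4 to 39 lower). Replicate numbers are shared between the groups. The correlations of deviations of same-numbered libraries were 0.015, -0.0032 and 0.023, within the range of differently numbered ones (-0.065 to 0.050). Whether same-numbered libraries shared a batch is not given in the labels and was not tested. With the replicate block, in which CRS replicate 4 has no partner, 12 genes were called (12 higher, 0 lower), 0 pathway genes rose and 0 fell. Over the pathway lists, 3 rose and 1 fell, against 7 and 3 with DESeq2. The number lower was 3 with limma-voom, 2 with total-count scaling, 2 at the threshold of 0.10 and 0 with no filter on low counts, and leaving out single libraries gave 2 to 3 higher and 0 lower. Rcn2, near 0, turned negative with DESeq2 (-0.015), RLE factors (-0.023), total counts (-0.14), upper quartile factors (-0.049), the CPM filter (-0.0089), the replicate block (-0.11) and without CRS replicate 4 (-0.13) or noCRS replicate 3 (-0.06). Selenos turned without CRS replicate 1 (range with single libraries left out -0.34 to 0.0037) and Sar1b without CRS replicate 2 (range -0.025 to 0.29). Ratio differences kept their sign except Ddit3 to Atf4 without CRS replicate 2 (-0.21); leaving out single libraries gave -1.04 to -0.81 for Hspa5 to Hspa8, -0.98 to -0.69 for Hsp90b1 to Hsp90ab1, -0.21 to 0.30 for Ddit3 to Atf4 and -0.53 to -0.15 for Calr to Canx, sizes at which the permutation test cannot reach the threshold. The cause of these changes was not tested.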
